A study of Mus musculus with 48 samples.

Results

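The 39 genes described here encode the transporters, enzymes and regulators of glycolysis together with genes known to be induced by low oxygen. They were chosen by symbol and known function, with earlier results of these data in view, and all 39 were found among the 47480 gene symbols of the count tables. RNA was sequenced from C2C12 cells, an established mouse line of myoblasts that fuse into multinucleated muscle cells in low-serum medium. The cells were used as myoblasts in growth medium or after several days of differentiation, and the labels call the differentiated cells myotubes. The Flexcell system stretched them in cycles, equally in both directions, on flexible plates coated with collagen I over 1 h, 3 h or, at most, 6 h, and RNA was extracted directly afterwards. Non-stretched cells stayed on plates of the same kind for the same time, so that every time had its own controls. This gave 12 groups of 4 libraries. All groups come from this single cell line, without an altered gene or an added drug. By the codes in the labels, the libraries of a group came from 2 experiments, or 3 for differentiated cells stretched for 1 h. The study's methods call the experiments independent. For differentiated cells they give 3 experiments for 4 samples, whereas the codes of the other differentiated groups show 2. The methods also speak of separate samples within an experiment. The p-values measure the spread between these libraries, both within and between experiments.

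Glycolysis splits glucose into pyruvate in the cytosol and yields ATP without oxygen. Hexokinase traps glucose in the cell, phosphofructokinase commits it to the pathway, the lower enzymes harvest ATP, and lactate dehydrogenase restores the NAD+ that the pathway consumes. Skeletal muscle has isoforms of its own for several of these steps. Hypoxia-inducible factor 1 alpha (HIF1A) is marked for degradation by the prolyl hydroxylases EGLN1 and EGLN3 while oxygen is present, and once stable it raises glycolytic genes and genes such as Vegfa, Ak4, Ankrd37, Ndrg1 and P4ha1.

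The libraries held between 48447318 and 77080730 counts. Levels are given in CPM, the counts of a gene relative to the library total, scaled with TMM factors over all 48 libraries. The summed level of 8 markers of differentiated muscle was between 8.26 and 18.7 CPM in the myoblast libraries and between 12294 and 15039.6 CPM in the differentiated ones. That of 6 markers of fibroblasts and fat cells, of which Adipoq was near 0 and Lum at 0 in the myoblasts, was between 5.45 and 8.29 CPM in myoblasts and between 51.1 and 82.003 CPM in differentiated cells. Replicates 7 and 8 of each stage came from a first experiment and replicates 9 and 10 from a second. Differentiated cells stretched for 1 h were replicates 4, 7, 8 and 9, and replicate 4 was the only library of its experiment. The summed level of 5 proliferation markers was 639 CPM in it, against 304 to 425 CPM in the other differentiated libraries of 1 h. Ddit4 at 1 h and the comparison of 6 h with 1 h changed without this library, as given with those results. Effects are log2 fold changes of stretched against non-stretched cells from edgeR's quasi-likelihood test on the 8 libraries of a time, with p-values adjusted over all genes tested by the Benjamini-Hochberg method. A gene is said to have risen or fallen at an adjusted p-value under 0.05, and to have been upregulated or downregulated if the log2 fold change was also at least 0.58 in size.

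The levels from which stretching started differed between the stages for most of these genes, as for most of all genes tested. In non-stretched cells, 16 of the 39 were higher in differentiated cells than in myoblasts (45.0% of all genes tested) and 21 were lower (44.4%). The stage cannot be told apart from the experiment, the plating density and the medium. The muscle isoforms Pgam2 and Pfkm had the largest rises. Pgam2, the muscle phosphoglycerate mutase, was at 0.305 ± 0.0614 CPM in myoblasts against 57.7 ± 4.84 CPM after differentiation (SD, n = 12 each), a log2 difference of 7.53 ± 0.0578 (SE). Pfkm, the muscle phosphofructokinase, was at 46.7 ± 3.29 and 379 ± 21.4 CPM, and Eno3, the muscle enolase, at 329 ± 21.6 and 747 ± 33.5 CPM. Adm, Ldhb and the hydroxylase gene Egln3 also stood higher in differentiated cells, by 2.03, 1.55 and 1.44 on the log2 scale. Ak4, a mitochondrial adenylate kinase, went the other way, with 9.64 ± 0.783 CPM in myoblasts against 2.76 ± 0.308 CPM after differentiation. Slc2a1, the gene of the glucose transporter GLUT1, was at 175 ± 8.60 and 62.3 ± 2.47 CPM. Pfkfb3, Pgam1, Pgk1, Eno1, Ankrd37, Pkm and Pfkl were lower too, with log2 differences from -1.38 to -1.04. Pfkp and Vegfa did not pass the test, with log2 differences of -0.02 ± 0.0237 and -0.05 ± 0.0621 (SE).

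**Figure D1:**
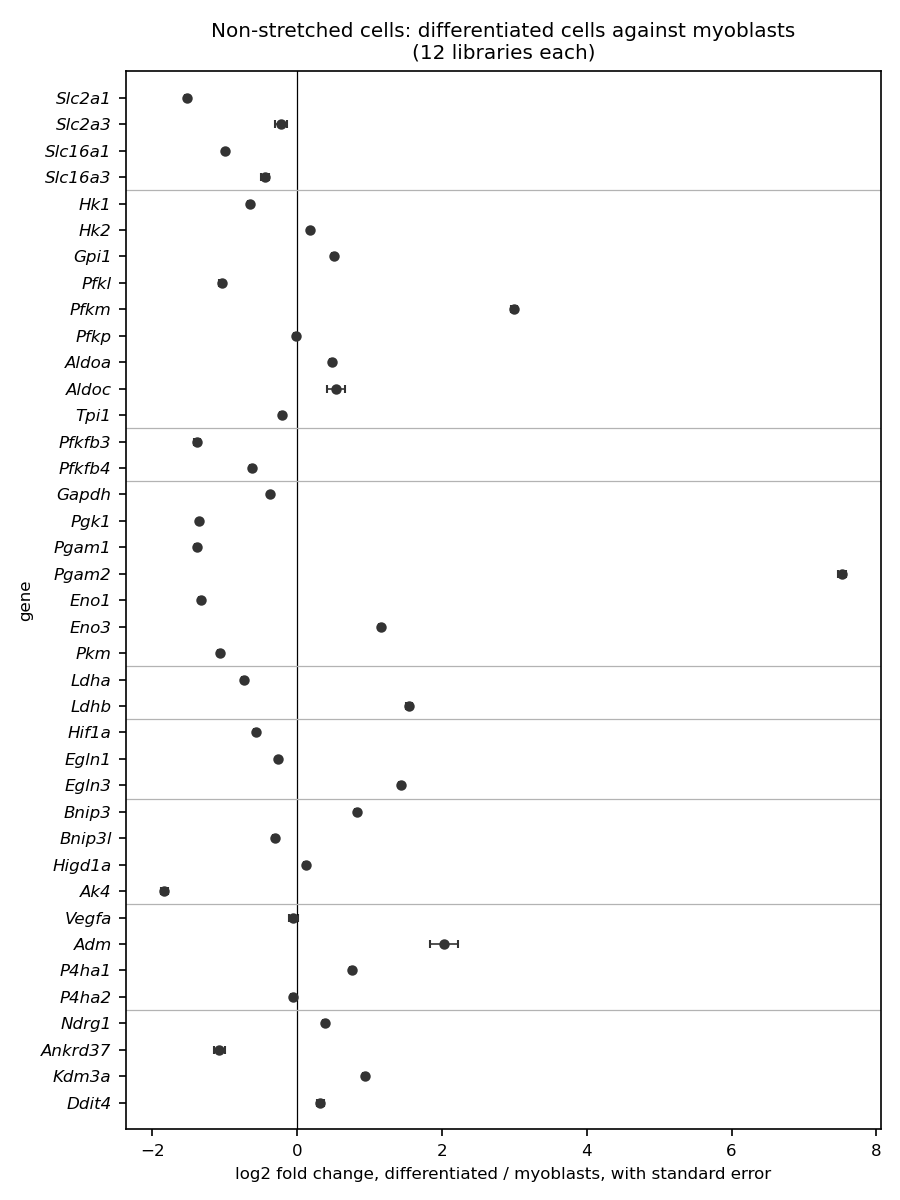
Level in non-stretched differentiated cells against non-stretched myoblasts for the 39 genes. The x axis is the log2 fold change, points are edgeR estimates from 12 libraries a stage, bars are standard errors, and grey lines separate groups of genes by role. Pgam2 lies highest at 7.53, followed by Pfkm at 2.99, and Ak4 lies lowest at -1.83.

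Isoforms of a family were compared per length, as the share of each gene after its count was divided by the mean length of its annotated coding transcripts. Pfkm made up 17.4% ± 0.723 of the 3 phosphofructokinase genes in non-stretched myoblasts and 69.5% ± 2.01 in non-stretched differentiated cells (SD, n = 12). The share of the liver-type gene Pfkl was 41.6% ± 1.42 and 10.2% ± 0.501, and that of the platelet-type gene Pfkp 41.1% ± 1.86 and 20.4% ± 1.69. The muscle gene was thus the smallest of the family in myoblasts and the largest in differentiated cells. Eno3 made up 17.2% ± 0.473 of the enolases in myoblasts and 53.7% ± 1.30 in differentiated cells, and Pgam2 0.0959% ± 0.0192 and 31.6% ± 2.14 of the phosphoglycerate mutases. Hk1, by contrast, had the larger share of the hexokinases in both stages, with 88.7% ± 0.618 and 81.4% ± 0.947, as Ldha had of the lactate dehydrogenases, with 99.5% ± 0.0487 and 97.7% ± 0.133. In stretched cells, Pfkm made up 16.9% ± 0.937 in myoblasts and 67.7% ± 2.30 in differentiated cells. The shares are descriptions without a test. Those of Pgam1, Eno1, Ldha and Ldhb are uncertain, since 19.6% to 37.1% of the 31-base stretches in their transcripts also occur in other genes, pseudogenes among them.

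Without stretching, the hours on the plate moved few of the genes, as of all genes tested. A test over the 3 times in non-stretched myoblasts passed for 1 gene, Egln3 (adjusted p = 0.0312 by edgeR), where 4.31% of all genes passed. In non-stretched differentiated cells it passed for 0 of the 39, where 0.108% of all genes passed. At an unadjusted p under 0.05, the numbers were 11 and 2. The share of all genes at that level was not counted, here or for the later counts at an unadjusted p.

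Stretching changed few of the 39 genes at 1 h and more of them later, as it did of all genes tested. In myoblasts at 1 h, 1 gene rose (1.67% of all genes tested) and 1 fell (4.24%). At 3 h, 6 rose (16%) and 7 fell (15.8%). At 6 h, 11 of 38 rose (14.1%) and 1 fell (13.0%), and Adm was too low to be tested. The shares that rose or fell in myoblasts at 1 h and 3 h were thus near those of all genes. In differentiated cells at 1 h, 0 rose (0.193%) and 0 fell (0.470%) with edgeR, 3 had an unadjusted p under 0.05, and 1 passed with DESeq2. At 3 h, 12 rose (10.8%) and 0 fell (11.4%), where 17 had an unadjusted p under 0.05. At 6 h, 18 rose (11.5%) and 2 fell (10.8%). The median log2 fold change of the genes was -0.02, 0.00 and 0.05 at 1 h, 3 h and 6 h in myoblasts and 0.01, 0.06 and 0.13 in differentiated cells, and that of all genes tested was between -0.01 and 0.00. Most of the changes were thus small. The genes past both limits were Ak4 and Ankrd37 (upregulated, 0.518% of all genes) and Slc2a3 (downregulated, 1.52%), each in differentiated cells at 6 h. The other comparisons had 0 of the genes past both limits. There, the upregulated and downregulated shares of all genes were 0.254% and 0.997% in myoblasts at 1 h, 0.459% and 1.25% at 3 h, 1.35% and 0.823% at 6 h, and 0.0901% and 0.180% at 1 h and 0.890% and 0.741% at 3 h in differentiated cells.

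Over the 6 comparisons, 28 of the genes passed the adjusted threshold at least at 1 time, where 54.8% of all genes did. All 59 of these calls had the same direction in both experiments. The calls were made on these same libraries, so that the shared direction is no separate support for them. Leaving out each library in turn, 39 of the calls always passed and 20 did not, and the latter are given with the gene. The share of all called genes that always passed was not counted. Slc16a3, Hk1, Gpi1, Aldoa, Aldoc, Tpi1, Gapdh, Pgam2, Eno3, Ldhb and Adm, 11 genes, passed in no comparison.

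**Figure D2:**
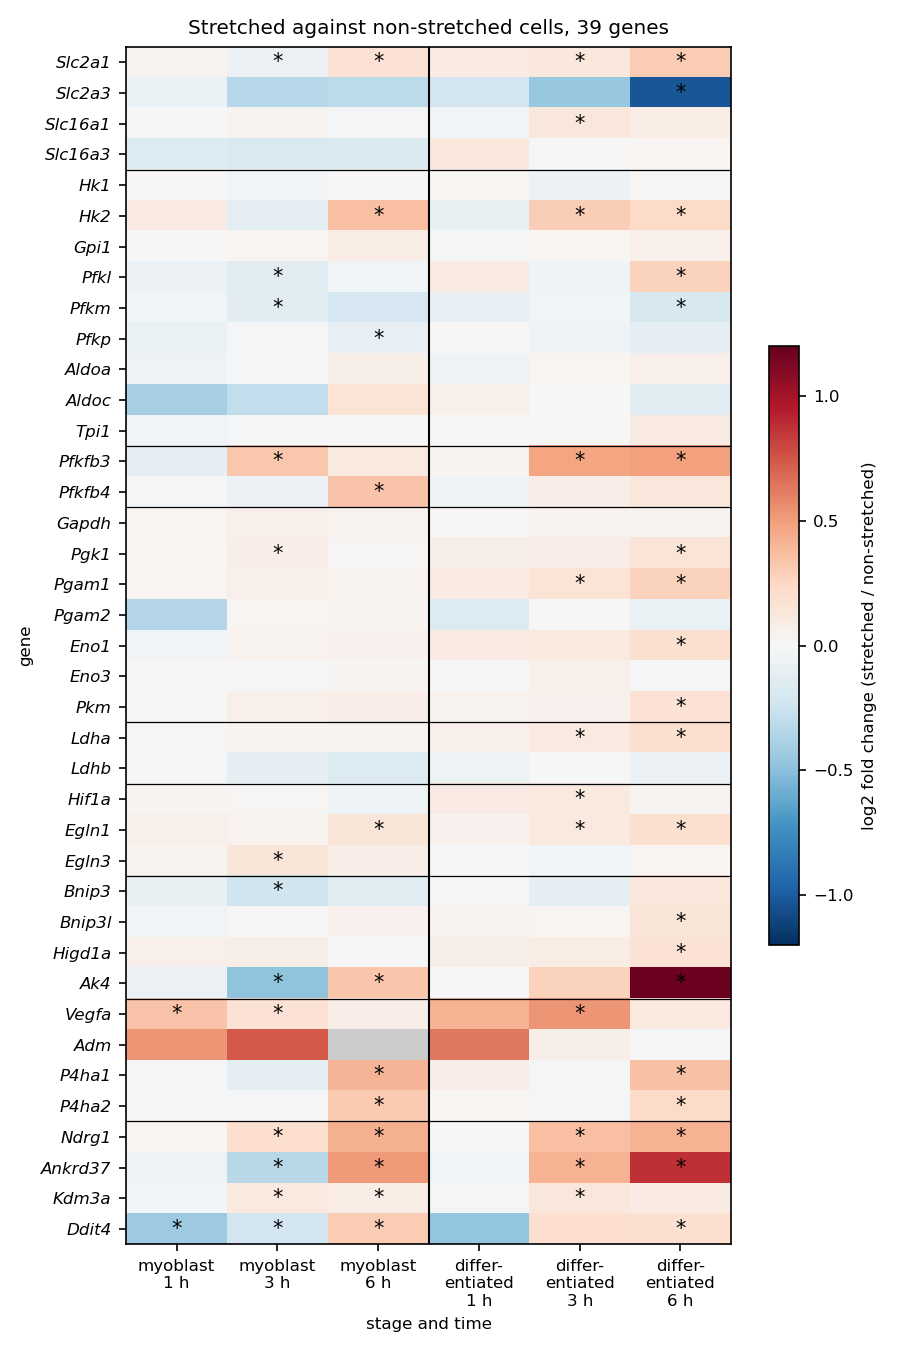
Log2 fold change of stretched against non-stretched cells for the 39 genes (vertical axis, grouped by role) at each stage and time (horizontal axis). Stars mark an adjusted p-value under 0.05, and the grey cell is Adm in myoblasts at 6 h, which was not tested. Differentiated cells at 6 h have 20 stars, and those at 1 h have 0.

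Among the glucose transporters, Slc2a1 rose and Slc2a3 fell in differentiated cells at 6 h. Slc2a1 rose at 6 h, in myoblasts from 182 ± 5.50 to 202 ± 5.06 CPM and in differentiated cells from 61.5 ± 1.98 to 75.8 ± 3.07 CPM (mean ± SD of 4 libraries). The log2 fold changes were 0.17 ± 0.0301 and 0.30 ± 0.0383 (SE, adjusted p = 0.00202 and 0.000908 by edgeR). At 3 h it fell by 0.07 in myoblasts, which did not pass without replicate 7, 8 or 10 of the non-stretched cells or replicate 7, 8, 9 or 10 of the stretched cells (adjusted p 0.0510 to 0.156). It rose by 0.13 in differentiated cells at 3 h, which did not pass without replicate 7 or 8 of the non-stretched cells or replicate 7, 8 or 10 of the stretched cells (adjusted p 0.0515 to 0.0619).

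Slc2a3 (chr6:122727809-122801640, minus strand in mm10), the gene of GLUT3, a glucose transporter of high affinity, went down. In differentiated cells at 6 h, the non-stretched libraries were at 0.893, 0.971, 0.979 and 1.05 CPM and the stretched libraries at 0.314, 0.587, 0.416 and 0.592 CPM. Every stretched library was below every non-stretched one, and the log2 fold change was -1.03 ± 0.202 (SE, adjusted p = 0.00559 by edgeR), with -1.09 in the first experiment and -1.01 in the second. These levels rest on 19 to 66 counts in a library. Differentiated cells at 3 h were at 0.933, 0.922, 1.25 and 1.03 CPM without and at 0.799, 0.671, 0.744 and 0.820 CPM with stretching, again without overlap, and the log2 fold change of -0.45 ± 0.150 missed the threshold (adjusted p = 0.0519 by edgeR). It passed with the experiment as a covariate (adjusted p = 0.038 by edgeR). In myoblasts, the log2 fold changes were -0.08, -0.34 and -0.32 at 1 h, 3 h and 6 h without passing. The value at 3 h passed without replicate 7 of the non-stretched cells (-0.41, adjusted p 0.0377). Per length, Slc2a3 made up 1.49% ± 0.162 of Slc2a1 and Slc2a3 in non-stretched differentiated cells (SD, n = 12) and 0.941% ± 0.330 in stretched ones.

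Slc16a1 and Slc16a3 encode MCT1 and MCT4, which carry lactate across the membrane. Slc16a1 rose in the differentiated libraries of 3 h, from 104 ± 1.83 to 115 ± 1.49 CPM (mean ± SD of 4 libraries), with a log2 fold change of 0.14 ± 0.0247 (SE). Slc16a3 had log2 fold changes between -0.19 and 0.12, and that in myoblasts at 3 h passed without replicate 9 of the non-stretched cells (-0.25, adjusted p 0.0114).

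Hk2, the insulin-responsive hexokinase of muscle, rose in both stages. In myoblasts at 6 h, the non-stretched libraries were at 88.3, 86.7, 91.6 and 91.1 CPM and the stretched libraries at 109.95, 108, 110.1 and 124 CPM. Differentiated cells of the same time were at 102, 97.7, 105 and 95.7 CPM and 109.7, 118, 124 and 119 CPM. At neither stage did the groups overlap. The log2 fold changes were 0.36 ± 0.0424 and 0.23 ± 0.0440 (SE, adjusted p = 0.00025 and 0.00514 by edgeR), and differentiated cells had 0.30 ± 0.0359 at 3 h already. In myoblasts at 3 h, Hk2 was at -0.11, which passed only without replicate 7 of the non-stretched cells or replicate 9 of the stretched cells (-0.14, adjusted p 0.0110 to 0.0225). Hk1, the other hexokinase, stayed between -0.07 and 0.02.

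Among the phosphofructokinase genes, Pfkl and Pfkm moved apart in differentiated cells at 6 h. Pfkl rose, namely from 61.9 ± 4.07 to 74.9 ± 5.80 CPM (mean ± SD of 4 libraries), with a log2 fold change of 0.27 ± 0.0599 (SE, adjusted p = 0.0095 by edgeR). Pfkm fell from 391 ± 23.6 to 342 ± 3.34 CPM, or by 0.19 on the log2 scale (adjusted p = 0.012 by edgeR). In myoblasts at 3 h, Pfkl fell by 0.14, which did not pass without replicate 7 or 8 of the non-stretched cells or replicate 7, 8, 9 or 10 of the stretched cells (adjusted p 0.0542 to 0.130). Pfkm fell by 0.13, which did not pass without replicate 7 or 8 of the non-stretched cells or replicate 9 or 10 of the stretched cells (adjusted p 0.0707 to 0.0945). At 6 h in myoblasts, Pfkm was at -0.20 and passed without replicate 9 of the non-stretched cells or replicate 8 of the stretched cells (-0.26 to -0.25, adjusted p 0.0174 to 0.0252), and Pfkp fell by 0.10, which did not pass without replicate 7 or 10 of the non-stretched cells (adjusted p 0.0617 to 0.0665). Pfkp in differentiated cells at 6 h was at -0.10 and passed without replicate 9 of the non-stretched cells (-0.13, adjusted p 0.0484). Of the remaining genes of the upper pathway, Gpi1 in myoblasts at 6 h passed without replicate 7 of the stretched cells (0.11, adjusted p 0.0413), Tpi1 in differentiated cells at 6 h passed without replicate 9 of the stretched cells (0.14, adjusted p 0.0442), and Aldoa and Aldoc passed in no such fit.

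The bifunctional PFKFB enzymes make fructose-2,6-bisphosphate, a strong activator of phosphofructokinase. Pfkfb3 (chr2:11471433-11554077, minus strand in mm10) rose in both stages at 3 h. In myoblasts, the non-stretched libraries were at 9.65, 10.3, 9.63 and 10.1 CPM and the stretched libraries at 11.9, 12.8, 12.1 and 13.1 CPM. In differentiated cells, they were at 3.84, 3.69, 4.45 and 4.57 CPM and 5.74, 5.60, 6.04 and 5.55 CPM. Stretched libraries lay above all non-stretched ones in both stages, with log2 fold changes of 0.32 ± 0.0497 and 0.47 ± 0.0830 (SE, adjusted p = 0.000365 and 0.00296 by edgeR). At 6 h, differentiated cells were at 4.29, 4.12, 4.59 and 3.83 CPM without and at 6.08, 6.07, 5.75 and 5.74 CPM with stretching, a log2 fold change of 0.49 ± 0.0745 (adjusted p = 0.00193). Myoblasts at 6 h were at 10.02, 10.1, 11.6 and 11.2 CPM and 10.7, 11.98, 11.6 and 11.8 CPM, with overlap, and the value of 0.12 ± 0.0590 did not pass (adjusted p = 0.16). At 1 h, the log2 fold changes were -0.11 and 0.03, neither past the threshold. Pfkfb4 rose in myoblasts at 6 h, from 15.7 ± 0.622 to 19.6 ± 0.754 CPM (SD, n = 4; 0.34 ± 0.0439), and its value of 0.14 ± 0.0517 in differentiated cells at 6 h did not pass (adjusted p = 0.0781 by edgeR).

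The lower enzymes turn triose phosphate into pyruvate. Of their 7 genes, 4 rose in differentiated cells at 6 h (11.5% of all genes tested), namely Pgk1, Pgam1, Eno1 and Pkm, and 0 fell (10.8%). At 3 h, 1 rose there (10.8%), and at 1 h 0 rose (0.193%) and 0 fell (0.470%) by edgeR. Pgam1 went from 266 ± 15.1 to 323 ± 14.1 CPM (mean ± SD of 4 libraries), with a log2 fold change of 0.28 ± 0.0469 (SE, adjusted p = 0.00299 by edgeR), after 0.16 ± 0.0326 at 3 h. Pkm, the gene of the pyruvate kinase of muscle and dividing cells, went from 1440.1 ± 29.6 to 1625 ± 52.3 CPM (0.17 ± 0.0383, adjusted p = 0.0101). The rises of Pgam1 and Pkm at 6 h passed in every fit that left out 1 library, and that of Pgam1 at 3 h did not pass with all 24 libraries of the stage in 1 model (adjusted p = 0.0749 by edgeR). Eno1 rose by 0.20, which did not pass without replicate 7, 8 or 10 of the non-stretched cells or replicate 7, 8 or 10 of the stretched cells (adjusted p 0.0585 to 0.109), and Pgk1 by 0.15, which did not pass without replicate 8 or 10 of the non-stretched cells or replicate 7 or 8 of the stretched cells (adjusted p 0.0560 to 0.0583). The muscle genes Pgam2 and Eno3 were at -0.08 and -0.02, and Gapdh at 0.04. At 3 h in differentiated cells, Pgk1 passed without replicate 9 of the stretched cells (0.09, adjusted p 0.0499) and Eno1 without replicate 10 of the non-stretched cells or replicate 9 of the stretched cells (0.13 to 0.14, adjusted p 0.0177 to 0.0498).

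In myoblasts, the only call among these genes was Pgk1 at 3 h, which rose by 0.08 and did not pass without replicate 8, 9 or 10 of the non-stretched cells or replicate 7, 8, 9 or 10 of the stretched cells (adjusted p 0.0529 to 0.105). Gapdh and Pgam1 at 3 h passed without replicate 7 of the non-stretched cells (0.09, adjusted p for Gapdh 0.0317), and Pgam1 was then at 0.10 (adjusted p 0.0351). Ldha, which makes lactate from pyruvate, rose in differentiated cells from 494 ± 9.72 to 531 ± 18.7 CPM at 3 h and from 499 ± 24.3 to 569.8 ± 31.2 CPM at 6 h (SD, n = 4). The call at 3 h was lost without replicate 7, 8, 9 or 10 of the non-stretched cells or replicate 7, 8 or 10 of the stretched cells (adjusted p 0.0626 to 0.117), and that at 6 h without replicate 7 or 10 of the non-stretched cells or replicate 7 or 8 of the stretched cells (adjusted p 0.0518 to 0.0565). Ldhb, the heart-type subunit, had log2 fold changes between -0.17 and 0.00 without passing. Values of Gpi1, Aldoa, Tpi1, Gapdh, Pgk1, Pgam1, Eno1, Pkm, Ldha and Ldhb are uncertain, because other genes hold between 10.3% (Tpi1) and 54.7% (Pgk1) of their 31-base stretches, and reads may be divided among the copies. For Pfkm, this share was 9.35%.

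The oxygen sensing genes changed little. Hif1a rose in differentiated cells at 3 h, the mean being 168 ± 2.43 CPM without and 182 ± 8.87 CPM with stretching (SD, n = 4; log2 fold change 0.12 ± 0.0351, SE), which did not pass without replicate 7, 8 or 9 of the non-stretched cells or replicate 7, 9 or 10 of the stretched cells (adjusted p 0.0525 to 0.0782). At 6 h it was at -0.06 in myoblasts and 0.03 in differentiated cells. HIF1A is controlled mainly through its degradation, and its protein was not measured in these libraries. Egln1 rose by 0.15 ± 0.0337 in myoblasts at 6 h and by 0.12 ± 0.0300 and 0.19 ± 0.0432 (SE) in differentiated cells at 3 h and 6 h, of which the value at 3 h did not pass without replicate 7 of the stretched cells (adjusted p 0.0520). Egln3 rose in myoblasts at 3 h, where non-stretched libraries were at 53.03, 53.2, 52.9 and 54.2 CPM and stretched ones at 59.5, 57.8, 59.9 and 61.3 CPM. These groups did not overlap (0.15 ± 0.0263, adjusted p = 0.000856 by edgeR), and Egln3 was also the gene that moved over time without stretching.

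Ak4 (chr4:101419277-101466995, plus strand in mm10) had the largest rise of the 39 genes. At 6 h in differentiated cells, the non-stretched libraries were at 3.04, 2.91, 3.05 and 2.31 CPM and the stretched libraries at 6.56, 6.98, 6.42 and 5.71 CPM. The groups lay far apart: Ak4 was 2.27-fold higher, with a log2 fold change of 1.18 ± 0.102 (SE, adjusted p = 0.000177 by edgeR) and of 1.18 within each experiment. In myoblasts, Ak4 fell at 3 h and rose at 6 h. At 3 h, they were at 9.54, 9.99, 8.42 and 9.04 CPM without and at 6.88, 6.71, 6.08 and 7.11 CPM with stretching (-0.48 ± 0.0662, adjusted p = 0.000155). At 6 h, they were at 10.05, 10.5, 10.9 and 10.3 CPM and 13.4, 12.95, 13.3 and 12.2 CPM (0.33 ± 0.0495, adjusted p = 0.00085). Neither pair of groups overlapped, and these 3 calls passed in every fit that left out 1 library. The value of 0.28 ± 0.149 in differentiated cells at 3 h did not pass (adjusted p = 0.213) and was 0.54 in the first experiment and -0.01 in the second. At 1 h, the log2 fold changes were -0.07 and -0.01. A pseudogene, Ak3l2-ps, holds 11.6% of the 31-base stretches of Ak4, so that its counts are uncertain to that extent.

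Bnip3 and Bnip3l encode receptors that mark mitochondria for removal, and Higd1a a protein of the inner mitochondrial membrane. Bnip3 fell in myoblasts at 3 h from 20.5 ± 0.7995 to 17.5 ± 1.18 CPM (SD, n = 4; log2 fold change -0.24 ± 0.0476, SE). At 6 h it was at -0.15 in myoblasts and passed without replicate 8 of the stretched cells (-0.20, adjusted p 0.0180), and in differentiated cells at 0.13 and passed without replicate 9 of the stretched cells (0.16, adjusted p 0.0216). Bnip3l rose in differentiated cells at 6 h by 0.15 ± 0.0311 and Higd1a by 0.17 ± 0.0515, the latter not without replicate 7, 8 or 10 of the non-stretched cells or replicate 7, 8 or 10 of the stretched cells (adjusted p 0.0524 to 0.0940). Other genes, Bnip3l-ps among them, hold 20.3% of the 31-base stretches of Bnip3 and 23.7% of those of Bnip3l.

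Ankrd37 (chr8:45996902-46005707, minus strand in mm10), an ankyrin repeat gene and known HIF target, also fell at 3 h and rose at 6 h in myoblasts. The non-stretched differentiated libraries of 6 h were at 1.21, 1.04, 1.39 and 1.04 CPM and the stretched ones at 2.39, 2.19, 2.13 and 1.88 CPM. Myoblasts at 6 h were at 2.58, 2.56, 2.52 and 2.81 CPM and 3.71, 3.91, 3.56 and 3.54 CPM. Neither pair of groups overlapped, with log2 fold changes of 0.87 ± 0.132 in differentiated cells and 0.51 ± 0.0783 in myoblasts (SE, adjusted p = 0.00192 and 0.000994 by edgeR). Both rises passed in every fit that left out 1 library, although the level in differentiated cells rests on 61 to 145 counts in a library. At 3 h, myoblasts were at 3.36, 2.96, 2.61 and 2.37 CPM and 2.41, 2.42, 2.06 and 2.11 CPM with overlap. This log2 fold change of -0.33 ± 0.116 (adjusted p = 0.0419) did not pass without replicate 7 or 8 of the non-stretched cells or replicate 7, 8, 9 or 10 of the stretched cells (adjusted p 0.0509 to 0.117). Differentiated cells at 3 h were at 1.13, 1.16, 1.36 and 1.44 CPM and 1.68, 2.05, 1.61 and 1.51 CPM, and the rise of 0.42 ± 0.135 (adjusted p = 0.0466) did not pass without replicate 7, 8 or 9 of the non-stretched cells or replicate 7, 8 or 9 of the stretched cells (adjusted p 0.0628 to 0.116).

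Ndrg1 (chr15:66929318-66969640, minus strand in mm10), a stress-responsive gene, rose at 3 h and 6 h in both stages. In myoblasts at 3 h, it was at 86.7, 85.96, 85.03 and 90.1 CPM without stretching and at 97.5, 95.1, 107 and 105 CPM with it. At 6 h, it was at 88.1, 87.3, 86.3 and 94.5 CPM and 117, 114, 124 and 117 CPM. The distance between the groups was thus larger at 6 h, with 0.42 ± 0.0389 against 0.20 ± 0.0373 (SE, adjusted p = 6.13e-05 and 0.00114 by edgeR). Differentiated cells at 3 h were at 109, 111, 119 and 126 CPM and 139, 137, 159.6 and 162 CPM (0.36 ± 0.0643, adjusted p = 0.00296). At 6 h, it was at 114, 112, 118 and 119.7 CPM and 141, 148, 160.4 and 169.97 CPM (0.41 ± 0.0561, adjusted p = 0.00118). The groups overlapped in none of these 4 comparisons, and each passed in every fit that left out 1 library. Kdm3a, a histone demethylase gene, rose by 0.12 in myoblasts and 0.14 in differentiated cells at 3 h and by 0.09 in myoblasts at 6 h. The first of these did not pass without replicate 7 of the stretched cells (adjusted p 0.0512) and the last not without replicate 7, 8, 9 or 10 of the non-stretched cells or replicate 7, 9 or 10 of the stretched cells (adjusted p 0.0516 to 0.130), while Kdm3a in differentiated cells at 6 h passed without replicate 7 of the non-stretched cells (0.12, adjusted p 0.0384).

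Ddit4 (chr10:59949669-59951834, minus strand in mm10) encodes REDD1, an inhibitor of mTORC1 that answers to hypoxia, energy stress and glucocorticoids. In myoblasts it fell early and rose late. At 1 h, the non-stretched libraries were at 19.4, 19.6, 15.5 and 17.004 CPM and the stretched libraries at 14.2, 13.1, 13.98 and 11.8 CPM, without overlap (-0.43 ± 0.0826, SE, adjusted p = 0.0106 by edgeR). At 3 h, they were at 22.3, 23.2, 17.9 and 19.4 CPM and 17.2, 18.96, 17.004 and 18.1 CPM (-0.23 ± 0.0682, adjusted p = 0.0209). At 6 h, they were at 18.5, 18.6, 15.9 and 15.4 CPM and 23.1, 21.5, 21.5 and 17.1 CPM (0.30 ± 0.0934, adjusted p = 0.0333). At 3 h and 6 h the groups overlapped. The fall at 3 h did not pass without replicate 7 or 8 of the non-stretched cells or replicate 7 or 9 of the stretched cells (adjusted p 0.0581 to 0.0711), and the rise at 6 h did not pass without replicate 9 or 10 of the non-stretched cells or replicate 7, 8 or 9 of the stretched cells (adjusted p 0.0624 to 0.0976).

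In differentiated cells at 1 h, Ddit4 was at 20.9, 21.6, 24.8 and 25.6 CPM without stretching. With stretching, replicate 4 was at 21.5 CPM and replicates 7, 8 and 9 were at 15.2, 14.8 and 15.9 CPM, below all non-stretched libraries. The log2 fold change of -0.46 ± 0.120 did not pass (SE, adjusted p = 0.153 by edgeR). It passed without replicate 4 of the stretched cells (-0.60, adjusted p 0.00827), with DESeq2 (adjusted p = 0.0202) and with the experiment as a covariate in edgeR (adjusted p = 0.000305). At 6 h, Ddit4 rose, with non-stretched libraries between 22.7 and 24.3 CPM and stretched ones between 25.8 and 28.5 CPM (0.19 ± 0.0413, adjusted p = 0.00801). With all 24 libraries of the stage in 1 model, that rise did not pass (adjusted p = 0.152). At 3 h, the value was 0.20 ± 0.0794 (adjusted p = 0.0921), and it passed without replicate 8 of the stretched cells (0.26, adjusted p 0.0310). It also passed there with the experiment as a covariate (adjusted p = 0.0366 by edgeR). Of 5 glucocorticoid responsive genes tested, only Sgk1, which serum also induces, passed at 1 h by edgeR, in both stages. Its level rose from 182 ± 13.8 to 344 ± 21.4 CPM in myoblasts and from 48.7 ± 4.68 to 136 ± 49.1 CPM in differentiated cells (SD, n = 4).

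Vegfa (chr17:46016993-46032369, minus strand in mm10), a growth factor of blood vessels, was the only one of the 39 genes to rise at 1 h. In myoblasts at 1 h, the non-stretched libraries were at 122, 117, 110.3 and 108 CPM and the stretched libraries at 149.99, 143, 144 and 144 CPM. At 3 h, they were at 106, 109.6, 99.8 and 104 CPM and 123, 118, 118 and 119 CPM. The groups did not overlap at these times, with log2 fold changes of 0.34 ± 0.0412 and 0.17 ± 0.0278 (SE, adjusted p = 0.000624 and 0.000424 by edgeR), and at 6 h they did (0.08 ± 0.0492, adjusted p = 0.258). Differentiated cells at 3 h were at 95.8, 90.8, 126 and 115 CPM without and at 154, 139.8, 155 and 168 CPM with stretching (0.53 ± 0.0956, adjusted p = 0.0032), and no stretched library was below a non-stretched one. At 1 h, stretched replicate 4 was at 190.04 CPM and stretched replicates 7, 8 and 9 were at 129, 134 and 122 CPM, all above the non-stretched libraries at 96.6 to 116 CPM. This log2 fold change of 0.42 ± 0.128 did not pass (adjusted p = 0.252). At 6 h, the value was 0.12 ± 0.134 (adjusted p = 0.584) with non-stretched replicate 9 at 142 CPM, and it passed without replicate 9 of the non-stretched cells (0.30, adjusted p 0.00769). Adm, the gene of the vasodilator adrenomedullin, had 5 to 76 counts in a library and did not pass, with log2 fold changes of 0.53 and 0.74 in myoblasts at 1 h and 3 h and of 0.63, 0.07 and -0.03 in differentiated cells. That in myoblasts at 3 h passed without replicate 10 of the non-stretched cells (0.99, adjusted p 0.0426).

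**Figure D3:**
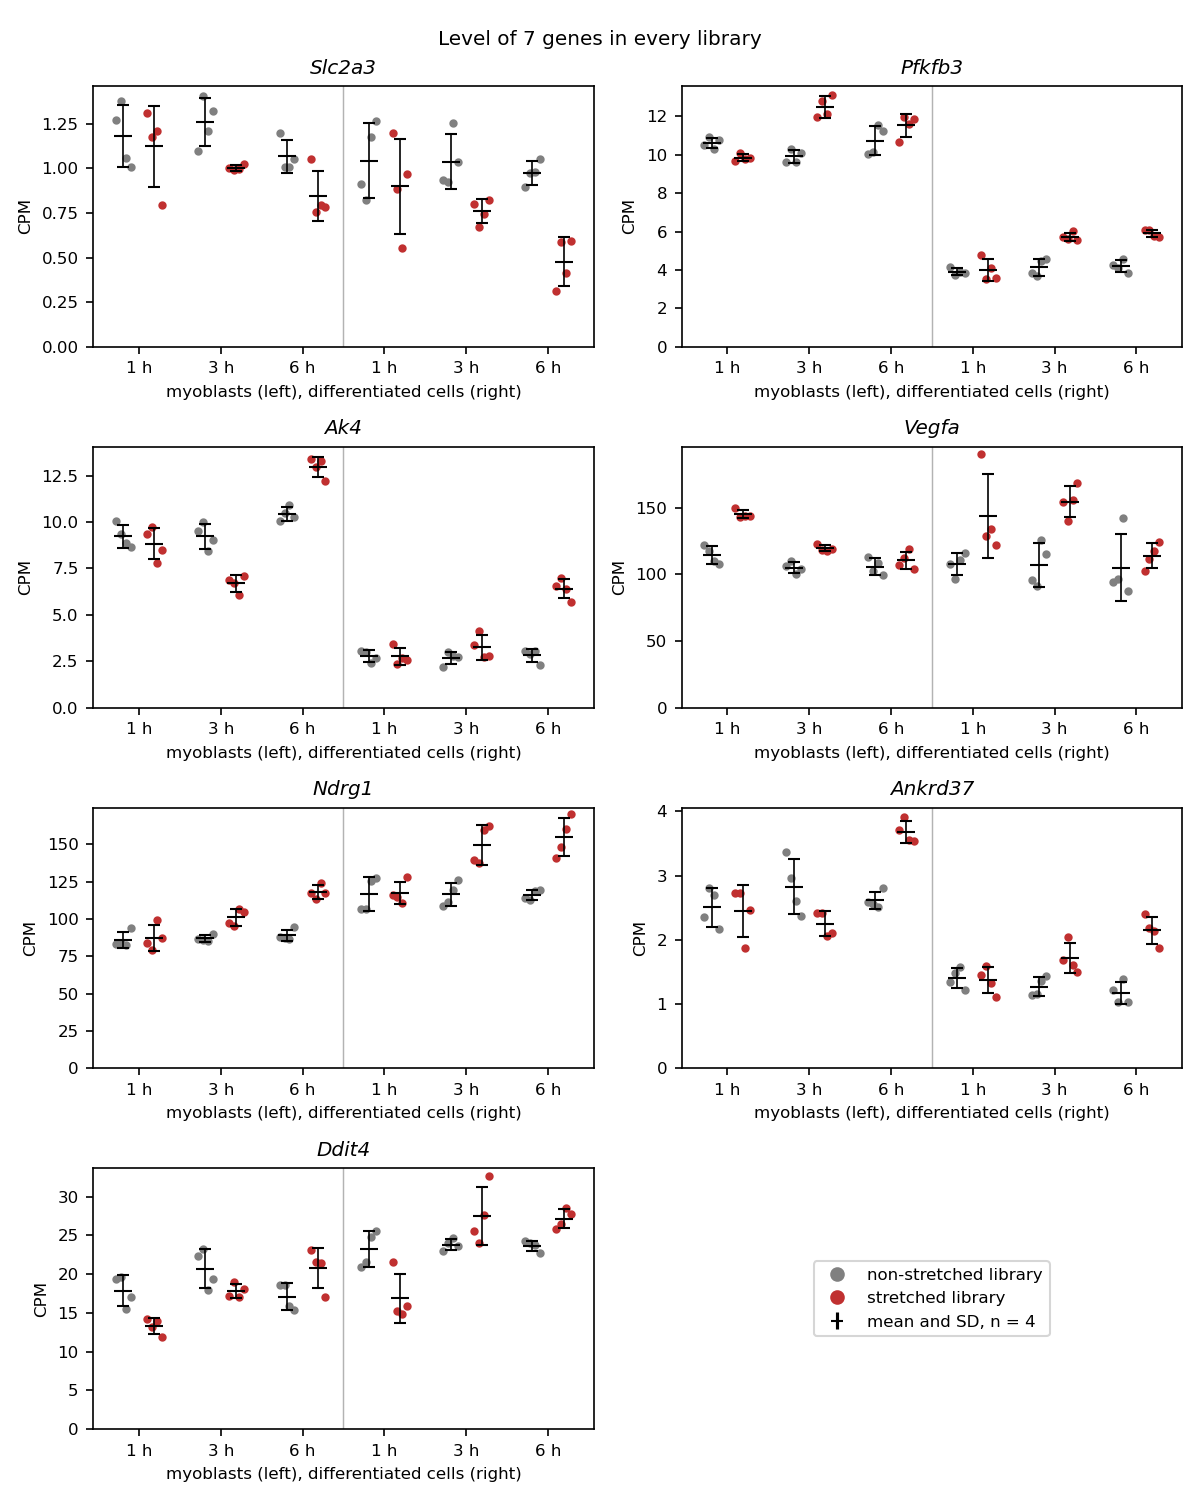
Level in CPM (vertical axes, starting at 0) of 7 genes in every library, at 1 h, 3 h and 6 h in myoblasts and differentiated cells. Grey points are non-stretched and red points stretched libraries, and black marks give the mean and SD of 4 libraries. In differentiated cells at 6 h, the stretched libraries of Ak4 lie between 5.71 and 6.98 CPM, all above the non-stretched ones, and those of Slc2a3 lie between 0.314 and 0.592 CPM, all below them.

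P4ha1 and P4ha2 encode catalytic subunits of collagen prolyl 4-hydroxylase, an enzyme of the endoplasmic reticulum (ER). Both rose at 6 h in both stages and passed at no earlier time. P4ha1 in myoblasts at 6 h was at 103, 102, 95.8 and 94.5 CPM without stretching and at 149, 116, 148 and 105 CPM with it (0.41 ± 0.102, SE, adjusted p = 0.0117 by edgeR). P4ha2 was at 44.1, 43.8, 41.7 and 43.2 CPM and 56.3, 48.6, 61.9 and 45.8 CPM (0.32 ± 0.0812, adjusted p = 0.0141). For both genes, stretched replicates 7 and 9 were the high ones. P4ha1 in differentiated cells at 6 h was at 176, 179, 177 and 162 CPM and 264, 213, 229 and 185 CPM (0.36 ± 0.0871, adjusted p = 0.0157). P4ha2 was at 42.91, 41.55, 45.37 and 41.63 CPM and 55.90, 45.78, 53.98 and 45.42 CPM (0.23 ± 0.0676, adjusted p = 0.0352). Replicates 7 and 9 were again the highest of the stretched libraries, and the groups overlapped in none of these comparisons, although non-stretched replicate 9 and stretched replicate 10 of the differentiated cells were nearly level for P4ha2. The rise of P4ha2 in differentiated cells did not pass without replicate 7, 8 or 10 of the non-stretched cells or replicate 7 or 9 of the stretched cells (adjusted p 0.0740 to 0.0929), and P4ha1 in myoblasts at 3 h passed as a fall without replicate 9 of the non-stretched cells (-0.15, adjusted p 0.0275).

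The summed level of 10 genes of the ATF4 and ER stress pathways split the same libraries. Most of the mean rise of this sum at 6 h came from the chaperone gene Hspa5, whose values are given below. At 6 h, the sum was 2699.6 and 2887 CPM in stretched myoblast replicates 7 and 9 and 1673 and 1753 CPM in replicates 8 and 10. Non-stretched myoblasts were at 1261, 1247, 1260.01 and 1301 CPM. Differentiated cells at 6 h had 2172 and 2413 CPM in stretched replicates 7 and 9 and 1786 and 1856 CPM in replicates 8 and 10, and 1449.9, 1473, 1716 and 1329.8 CPM in non-stretched ones. Its part in the rise of P4ha1 and P4ha2 was not tested.

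HIF binds DNA at the core ACGTG or GCGTG, which reads CACGT or CACGC on the other strand. Both strands of the 250 bases before each transcription start in RefSeq (build GRCm38.p6) were searched, and the palindrome CACGTG, which other factors bind too, counts as overlapping matches. The table held 36 of the 39 genes, and 33 of them (91.7%) had a core before at least 1 start. The share was 59.9% among 10829 genes tested in any comparison and 41.5% among all 27025 genes of the table. A gene with more starts has more chances of a match, and counted by promoter a core stood in 81.5% of the 54 promoters of these genes and in 38.6% of all 32851. ACGTG or its reverse complement stood before 21 of the 36 genes (58.3%), against 24.4% of the genes tested. Several of the 39 genes were chosen as known HIF targets, and a match describes the letters only. The 4 sequences printed here are those of Ak4 and Ankrd37, with the largest rises, of P4ha1, which rose at 6 h only, and of Ddit4, which changed sign over time. They run 5′ to 3′, are trimmed where an annotated exon overlaps, and have the cores in capitals. They lie at chr4:101419039-101419276 (plus strand), chr8:45999868-46000100 (minus strand), chr10:59323046-59323295 (plus strand) and chr10:59951835-59952020 (minus strand).
Ak4: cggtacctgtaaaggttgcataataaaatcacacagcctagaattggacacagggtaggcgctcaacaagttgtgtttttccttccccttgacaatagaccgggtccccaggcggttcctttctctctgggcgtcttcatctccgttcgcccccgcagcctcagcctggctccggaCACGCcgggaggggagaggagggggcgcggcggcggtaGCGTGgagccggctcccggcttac
Ankrd37: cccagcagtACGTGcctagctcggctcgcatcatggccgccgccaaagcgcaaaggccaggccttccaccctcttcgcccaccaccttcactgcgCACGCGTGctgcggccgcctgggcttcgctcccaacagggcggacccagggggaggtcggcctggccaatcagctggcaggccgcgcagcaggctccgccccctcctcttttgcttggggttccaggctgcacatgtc
P4ha1: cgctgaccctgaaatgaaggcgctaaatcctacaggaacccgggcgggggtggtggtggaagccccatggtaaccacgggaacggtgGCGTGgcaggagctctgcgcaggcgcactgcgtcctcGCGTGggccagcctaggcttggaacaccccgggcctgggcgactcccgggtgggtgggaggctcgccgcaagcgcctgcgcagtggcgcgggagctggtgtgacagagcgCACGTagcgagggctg
Ddit4: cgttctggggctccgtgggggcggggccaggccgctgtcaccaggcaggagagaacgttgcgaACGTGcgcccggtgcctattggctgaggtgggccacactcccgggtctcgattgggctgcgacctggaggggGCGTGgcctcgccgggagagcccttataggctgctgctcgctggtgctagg

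Counted back from the first of its 4 RefSeq starts, the cores of Ak4 begin at 74 and 36 bases. From the next starts the same cores lie at 97 and 59 and at 106 and 68 bases, and before the last start the palindrome CACGTG lies at 214 bases, in a stretch that overlaps an exon. The other genes printed have 1 start, with cores of P4ha1 at 163, 126 and 16 bases. Ankrd37 has cores at 241, 155 and 152 bases, of which the last ones overlap, and a further core at 6 bases in the stretch that was trimmed. The cores of Ddit4 begin at 187 and 115 bases. Of the 2 promoters of Vegfa in RefSeq, the first, at chr17:46032378-46032627 (minus strand), held no core within these 250 bases, and the second held GCGTG at 218 and CACGT at 211 bases, both in an annotated exon.

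Whether the effect of stretching differed between 6 h and 1 h was tested as an interaction over the 24 libraries of a stage. In myoblasts, it was higher at 6 h for 10 genes (11.6% of all genes tested) and lower for 1 (9.42%). Ddit4 had the largest difference, 0.73 ± 0.133 (SE, adjusted p = 0.00032 by edgeR). Its mean level was below that of its controls at 1 h and above it at 6 h, where the groups overlapped. Ankrd37 followed with 0.55 ± 0.158, P4ha1 with 0.42 ± 0.118, Ndrg1 with 0.40 ± 0.0749 and Ak4 with 0.40 ± 0.0928. Pfkfb4, P4ha2, Hk2, Pfkfb3 and Slc2a1 differed by 0.35, 0.33, 0.26, 0.23 and 0.13. The gene with the lower effect at 6 h was Vegfa, with -0.26 ± 0.0605 (adjusted p = 0.0028). Of these 11 calls, that of Slc2a1 was lost without replicate 7, 8 or 10 of the myoblast non-stretched 1 h cells or replicate 8, 9 or 10 of the myoblast stretched 1 h cells or replicate 7, 8 or 9 of the myoblast non-stretched 6 h cells or replicate 9 or 10 of the myoblast stretched 6 h cells (adjusted p 0.0525 to 0.0890).

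In differentiated cells, the effect was higher at 6 h than at 1 h for 6 genes (6.73%) and lower for 0 (5.13%), where 17 genes had an unadjusted p under 0.05. With the experiment as a term, 16 genes were higher (10.5% of all genes tested in that fit) and 1 lower (9.51%). With the replicate number as a block, 16 were higher (10.1%) and 1 lower (9.02%). Ak4 differed by 1.19 ± 0.193 (SE, adjusted p = 0.00039 by edgeR), Ankrd37 by 0.91 ± 0.189, Ddit4 by 0.66 ± 0.135, Pfkfb3 by 0.45 ± 0.123, Ndrg1 by 0.40 ± 0.102 and Hk2 by 0.32 ± 0.0792. No fit that left out 1 library lost any of these. Without stretched replicate 4 of the 1 h cells, 12 genes were higher (8.59% of all genes tested in that fit) and 0 lower (6.94%), the additional ones being Slc2a1, Pgam1, Pkm, Ldha, Egln1 and P4ha2 with differences between 0.16 and 0.28. P4ha2 also passed without stretched replicate 8 or 10 of the 6 h cells, and P4ha1 without replicate 10 (0.36, adjusted p 0.0304). Slc2a3 passed as lower without stretched replicate 8 of the 1 h cells (-0.99, adjusted p 0.0191). In myoblasts, Gpi1 and Aldoa passed as higher and Hif1a as lower without non-stretched replicate 9 of the 1 h cells, and Aldoc as higher without non-stretched replicate 8, with adjusted p-values of 0.0211 to 0.0435 by edgeR.

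The same test of 6 h against 3 h was added after the values had been seen, and it shares the 6 h libraries with the one before. In myoblasts, the effect was higher at 6 h for 9 genes (14.3%) and lower for 1 (12.2%). Ankrd37 differed by 0.85 ± 0.159 (SE, adjusted p = 0.000292 by edgeR) and Ak4 by 0.81 ± 0.0944. Both had means below those of their controls at 3 h and above them at 6 h, and the groups of Ankrd37 overlapped at 3 h. Ddit4, P4ha1, Hk2, Pfkfb4, P4ha2, Slc2a1 and Ndrg1 differed by 0.53, 0.53, 0.47, 0.42, 0.35, 0.25 and 0.23. The effect on Pfkfb3 was lower at 6 h, with -0.20 ± 0.0689 (adjusted p = 0.0376). In differentiated cells, the effect was higher at 6 h for 5 genes (6.95%), namely Ak4 (0.90 ± 0.192, adjusted p = 0.00341), P4ha1 (0.37), Pfkl (0.32), P4ha2 (0.25) and Bnip3 (0.24), and lower for 0 (5.05%), where 10 genes had an unadjusted p under 0.05.

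**Figure D4:**
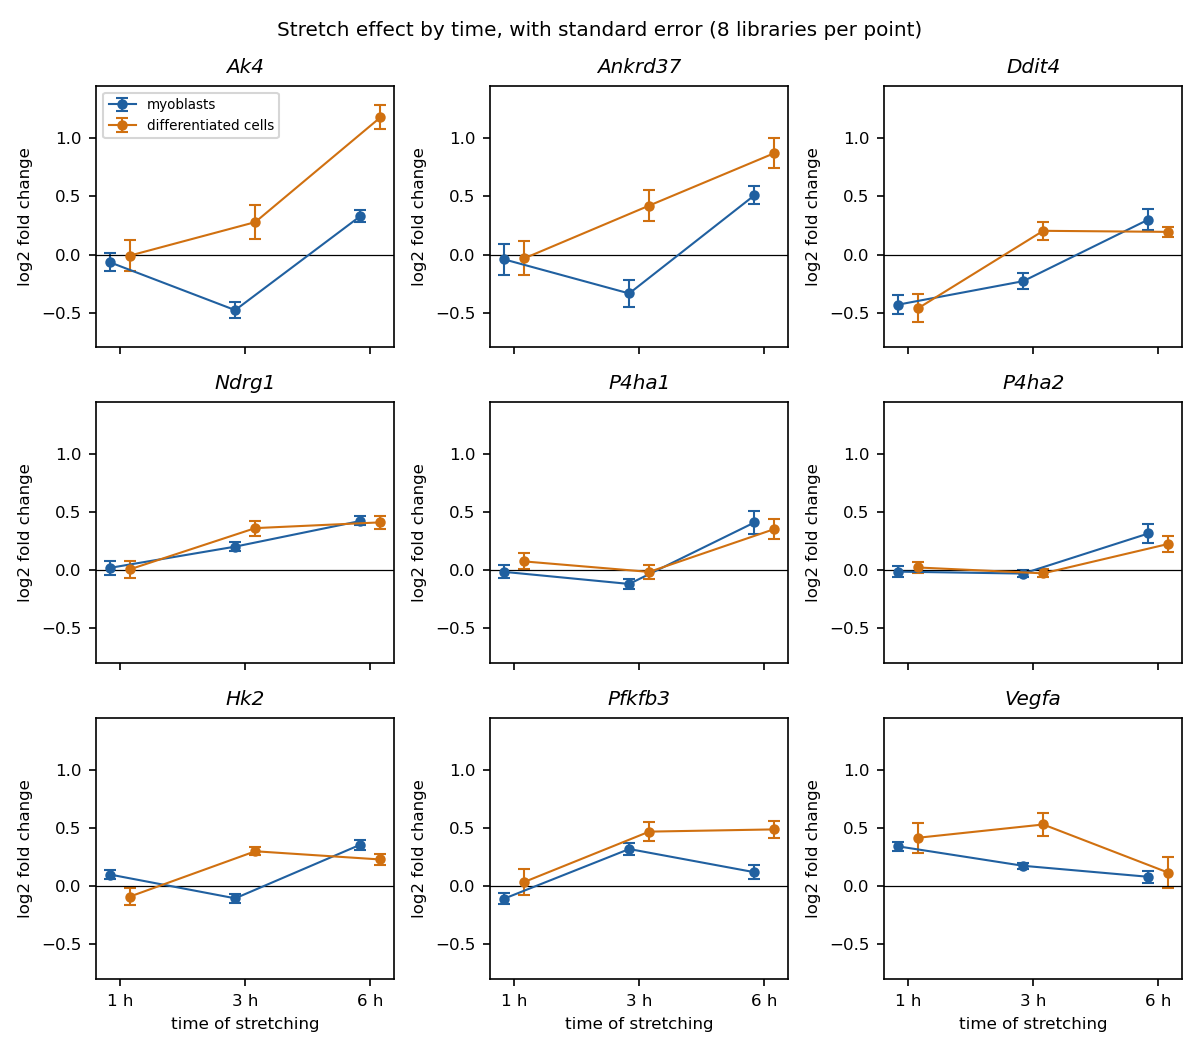
Log2 fold change of stretched against non-stretched cells (vertical axes) against the duration of stretching in h (horizontal axes) for 9 genes, in myoblasts (blue) and differentiated cells (orange). Bars are standard errors, each point comes from 8 libraries, and lines join the times of a stage, which are separate libraries. Ak4 and Ankrd37 in myoblasts go from -0.48 and -0.33 at 3 h to 0.33 and 0.51 at 6 h, and Vegfa is highest at 1 h in myoblasts and at 3 h in differentiated cells.

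The effects of stretching in the stages were compared at each time by an interaction over 16 libraries. At 1 h, the effect was larger in differentiated cells for 0 genes (0.00%) and smaller for 0 (0.00%) with edgeR, with 1 at an unadjusted p under 0.05. At 3 h, it was larger for 4 (1.13%) and smaller for 1 (0.658%). Hk2 differed by 0.40 ± 0.0572 (SE, adjusted p = 0.00134 by edgeR), which no fit leaving out 1 library lost. Ak4 and Ankrd37, which fell in myoblasts at this time, differed by 0.75 ± 0.164 and 0.75 ± 0.181 (adjusted p = 0.0235 and 0.0397). Slc2a1 differed by 0.20 ± 0.0463 and Egln3 by -0.19 ± 0.0461 (adjusted p = 0.0322 and 0.0463). The other calls were less stable: that of Ak4 was lost without replicate 8 of the myoblast non-stretched 3 h cells or replicate 9 of the myoblast stretched 3 h cells or replicate 7 of the differentiated stretched 3 h cells (adjusted p 0.0548 to 0.0572), and those of Ankrd37, Slc2a1 and Egln3 in 11, 10 and 14 of the 16 fits that left out 1 library. The fits that lost Slc2a1 were those without replicate 7, 8 or 10 of the myoblast non-stretched 3 h cells or replicate 7, 8 or 10 of the myoblast stretched 3 h cells or replicate 7 or 8 of the differentiated non-stretched 3 h cells or replicate 7 or 10 of the differentiated stretched 3 h cells (adjusted p 0.0625 to 0.0932). With the stage and replicate as a block, Slc2a1 did not pass either (adjusted p = 0.0734 by edgeR). Egln3 was lost without any library except differentiated non-stretched replicate 10 or stretched replicate 8 (adjusted p 0.0546 to 0.107). Ankrd37 was lost without any except myoblast non-stretched replicate 10, differentiated non-stretched replicate 9 or 10 or differentiated stretched replicate 9 or 10 (adjusted p 0.0516 to 0.0896).

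At 6 h, the effect was larger in differentiated cells for 3 genes (2.39%) and smaller for 0 (2.79%), where 13 genes had an unadjusted p under 0.05. Ak4 differed by 0.84 ± 0.110 (SE, adjusted p = 0.000542 by edgeR), and no fit leaving out 1 library lost this. Pfkfb3 differed by 0.36 ± 0.0930, which was lost without replicate 9 or 10 of the myoblast non-stretched 6 h cells or replicate 7 of the myoblast stretched 6 h cells or replicate 8 or 10 of the differentiated non-stretched 6 h cells or replicate 7 or 8 of the differentiated stretched 6 h cells (adjusted p 0.0553 to 0.0638). Pgam1 differed by 0.23 ± 0.0634, which was lost without replicate 7 or 10 of the myoblast non-stretched 6 h cells or replicate 7 or 9 of the myoblast stretched 6 h cells or replicate 7, 8 or 10 of the differentiated non-stretched 6 h cells or replicate 7, 8 or 10 of the differentiated stretched 6 h cells (adjusted p 0.0526 to 0.0876). With the stage and replicate as a block, Pfkfb3 and Pgam1 did not pass (adjusted p = 0.0527 and 0.0589 by edgeR). Pfkl and Bnip3 gained a call in 4 and 3 of the 16 fits that left out 1 library. At 3 h, Ddit4 and Vegfa did in 2 and 1. Other genes did not pass, which does not show that they responded alike in the stages.

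Other genes of the same pathways were counted in the same way. Of all genes tested, 1.67% rose and 4.24% fell in myoblasts at 1 h, 16% and 15.8% at 3 h and 14.1% and 13.0% at 6 h. In differentiated cells, these shares were 0.193% and 0.470%, 10.8% and 11.4%, and 11.5% and 10.8%. Of 33 further genes of glucose and glycogen metabolism, 19 were tested in myoblasts and 21 in differentiated cells, and 0 passed at 1 h in either stage. In myoblasts, 1 rose and 3 fell at 3 h and 4 rose and 2 fell at 6 h, and in differentiated cells 0 rose and 2 fell at 3 h and 2 rose and 1 fell at 6 h. Past both limits, Slc2a4, the gene of the insulin-responsive transporter GLUT4, fell in myoblasts at 3 h from 0.396 ± 0.0420 to 0.237 ± 0.0833 CPM (SD, n = 4; -0.74 ± 0.261, SE, adjusted p = 0.0459 by edgeR). Of 35 further hypoxia genes, 33 were tested in myoblasts and 34 after differentiation. Of these, 3 rose and 2 fell in myoblasts at 1 h, 10 rose and 8 fell at 3 h and 9 rose and 7 fell at 6 h, and in differentiated cells 1 rose and 0 fell, 9 rose and 5 fell and 6 rose and 1 fell. Those past both limits in myoblasts were Edn1 at 1 h and 3 h (0.77 and 0.71), and Bhlhe40 and Hmox1 at 3 h (0.64 and 0.68). In differentiated cells they were Cited2 at 1 h (0.68), Errfi1, Zfp395 and Ppp1r3c at 3 h (0.74, -0.62 and -0.98), and Stc1 and Ppp1r3c at 6 h (0.66 and -0.68).

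Of 10 genes of the ATF4 and ER stress pathways, 5 rose and 3 fell in myoblasts at 3 h and 5 rose and 0 fell at 6 h, and in differentiated cells 6 rose and 0 fell at 3 h and 6 rose and 0 fell at 6 h. At 1 h, 0 rose and 0 fell in myoblasts and 0 rose and 0 fell in differentiated cells by edgeR. In myoblasts at 6 h, Ddit3, Herpud1, Hspa5, Sdf2l1 and Xbp1 rose, and Atf4, Asns, Chac1, Sesn2 and Trib3 did not pass. In differentiated cells at 6 h, the same genes and Atf4 rose. At 6 h, the chaperone gene Hspa5 went from 714 ± 13.7 to 1554 ± 526 CPM in myoblasts and from 621 ± 71.3 to 999 ± 249 CPM in differentiated cells (SD, n = 4). The mean sum of the 10 genes went from 1267 to 2253 CPM and from 1492 to 2057 CPM there. Herpud1, Sdf2l1 and Ddit3 rose by 1.29, 1.43 and 1.18 in myoblasts at 6 h, and Sdf2l1 and Ddit3 by 0.78 and 0.97 in differentiated cells. ATF4 is known to induce Ddit4 and Vegfa, and the part of this pathway in the changes of the 39 genes was not tested. Of 6 glucocorticoid responsive genes, of which 5 were tested, 1 rose and 0 fell in myoblasts at 1 h, 2 rose and 1 fell in myoblasts at 3 h and 1 rose and 1 fell at 6 h, and in differentiated cells 1 rose and 0 fell at 1 h, 1 rose and 0 fell at 3 h and 1 rose and 3 fell at 6 h.

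Of 8 markers of differentiated muscle, 6 or 7 were tested in myoblasts and 8 in differentiated cells. Myog fell in myoblasts at 3 h (-0.82) and 6 h (-0.54), and none passed in differentiated cells with edgeR. Of 5 myoblast and reserve cell markers, 2 rose and 0 fell in myoblasts at 3 h, 3 rose and 1 fell in myoblasts at 6 h and 1 rose and 2 fell in differentiated cells at 6 h, with Id3 at -0.60. Of 5 proliferation markers, 2 rose and 1 fell in myoblasts at 3 h, 0 rose and 2 fell in myoblasts at 6 h, where their sum was 1781 to 1900.3 CPM without and 1562 to 1808 CPM with stretching, and 3 rose and 0 fell in differentiated cells at 3 h. Of 6 markers of fibroblasts and fat cells, 1 was tested in myoblasts, namely Pdgfra, and 4 in differentiated cells, and the others were too low. Pdgfra fell in myoblasts at 3 h and 6 h (-0.23 and -0.29) and in differentiated cells at 6 h (-0.66). The part of these markers in the changes of the 39 genes was not tested. In RNA from whole cultures, fewer cells of a type and less RNA per cell cannot be told apart.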

How the data were processed

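RNA-seq libraries of C2C12 cells in 12 groups of 4 were analysed. Groups were taken from the sample labels, which call the molecule nuclear RNA, whereas the methods describe extraction from washed cells. A library whose experiment code differs between its title and its table column was placed in the second experiment. According to the submitters' processing notes and the study's methods, the authors aligned reads to mm10 with STAR and quantified them with Salmon, and the deposited tables hold whole-number counts per gene symbol, not normalised, for each library. Both tables were used in full, with 0 columns left out. Totals were between 48447318 and 77080730 counts, and low counts limit the precision of genes such as Adm and Slc2a3. Sampling noise did not account for the difference between any pair of libraries of a group.

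Counts were tested with edgeR 4.0.16 in R 4.3.3 (filterByExpr, TMM factors, quasi-likelihood F-test, Benjamini-Hochberg adjustment over all genes tested), separately for the 8 libraries of each stage and time, without a replicate block. The limits were an adjusted p under 0.05 and, for up- or downregulation, a log2 fold change of at least 0.58. Differences of effects were interactions over 24 libraries of a stage or 16 of a time, and the test of 6 h against 3 h was added after the values had been seen. CPM came from TMM factors over all 48 libraries, with a prior count of 1 on the log2 scale. The model was tested on simulated data. DESeq2 1.42.0, other filters and scaling factors, the experiment as a term, the replicate block, all 24 libraries of a stage and leaving out each library were the alternatives.

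The 39 genes and the lists of other genes (glucose and glycogen metabolism, hypoxia, ATF4 and ER stress, glucocorticoid response, muscle, myoblast and reserve cell, proliferation, fibroblast and fat cell markers) were chosen with earlier results of these data known. A list of mitochondrially encoded genes was not analysed here, since 0 of its symbols were tested. Values in every library are given for genes past both limits and, in each comparison, for the 2 genes with the largest absolute log2 fold change among those that passed, 7 in all. Hk2, Egln3, P4ha1 and P4ha2 were added after their values had been seen. Other genes are given by group means and counts, and genes of the other lists with values where they passed both limits, apart from Sgk1 and the markers. GENCODE vM21 matched 45213 of 47480 symbols and all 39 genes, and gave positions, transcript lengths and shared 31-base stretches. Promoters are from RefSeq, build GRCm38.p6, and whether the counting used the strand of these stranded libraries is not given in the sources used here.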

Additional observations from a re-analysis of the deposited data

Results flagged for a closer look

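Of 84 groups of 4 libraries examined for the 7 genes shown library by library, 5 held a library that stood apart from the other 3, and chance gives about 1 in 20. Slc2a3 in stretched myoblasts at 6 h was at 1.05 CPM in replicate 7, and the others lay between 0.752 and 0.792 CPM. Vegfa in non-stretched differentiated cells at 6 h was at 142 CPM in replicate 9 against 87.2 to 96.1 CPM. In stretched myoblasts at 1 h, Vegfa was at 149.99 CPM in replicate 7 against 143 to 144 CPM. Ndrg1 in non-stretched myoblasts at 1 h was at 93.7 CPM in replicate 10 against 82.8 to 84.1 CPM. Ddit4 in stretched differentiated cells at 1 h was at 21.5 CPM in replicate 4, the library that was alone in its experiment, against 14.8 to 15.9 CPM.

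The effect of stretching differed between 6 h and 1 h, on the log2 scale and by edgeR's interaction test, for Ddit4 (0.73), Ankrd37 (0.55), P4ha1 (0.42), Ndrg1 (0.40), Ak4 (0.40), Pfkfb4 (0.35), P4ha2 (0.33), Hk2 (0.26), Pfkfb3 (0.23), Slc2a1 (0.13) and Vegfa (-0.26) in myoblasts. In differentiated cells, it differed for Ak4 (1.19), Ankrd37 (0.91), Ddit4 (0.66), Pfkfb3 (0.45), Ndrg1 (0.40) and Hk2 (0.32). It differed between the stages, as differentiated cells minus myoblasts, for Ankrd37 (0.75), Ak4 (0.75), Hk2 (0.40), Slc2a1 (0.20) and Egln3 (-0.19) at 3 h and for Ak4 (0.84), Pfkfb3 (0.36) and Pgam1 (0.23) at 6 h. The largest adjusted p-value among these was 0.0474.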

How the results depend on the processing

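The choices were other scaling factors, other count filters, the experiment or the replicate number as a term, DESeq2, all 24 libraries of a stage in 1 model, and leaving out each library. Same-numbered stretched and non-stretched libraries shared deviations with correlations between -0.0665 and 0.105. Of 23, 8 correlated best with their own number, so that the numbers were not taken as pairs. Where another number correlated best, it mostly came from the same experiment, as for stretched replicates 9 and 10 of myoblasts at 3 h (0.0446 and 0.0308). The main tests had no term for the experiment, and counts with it are given below. Except for the values given here, the counts of genes called stayed within 1.5 times the reported ones in these fits, and the cause of the moves was not tested. With all 24 libraries in 1 model, the genes that fell in myoblasts numbered 2 at 1 h, 3 at 3 h and 2 at 6 h. At 6 h in myoblasts they numbered 2 without a filter, 3 with the experiment, 3 with the replicate block and 2 with DESeq2. In differentiated cells at 1 h, 1 gene fell (Ddit4) with the experiment, the block, DESeq2 or 24 libraries. At 3 h, 1 fell with at least 10 counts in every library, 2 with the experiment and 1 with the block. For 6 h against 1 h in differentiated cells, 16 genes were higher and 1 lower with the experiment (10.5% and 9.51% of all genes tested), and 16 and 1 with the block (10.1% and 9.02%). For 6 h against 3 h there, 2 were lower with the experiment and 1 with the block. Between the stages at 6 h, 5 were higher with DESeq2.

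The replicate block lost Slc2a1 in myoblasts at 3 h (adjusted p = 0.0821), Kdm3a in myoblasts at 6 h (0.0744), Ldha and Ankrd37 in differentiated cells at 3 h (0.0568 and 0.0808), and Eno1 and Higd1a there at 6 h (0.0633 and 0.0563), by edgeR. Slc2a1 in myoblasts at 3 h was also lost with RLE factors (0.054), without a filter (0.0988) and with the experiment (0.0542), and Kdm3a in myoblasts at 6 h without a filter (0.104) and with DESeq2 (0.0612). Ldha and Ankrd37 in differentiated cells at 3 h were lost without a filter too (0.0803 and 0.0635). The block also lost the differences between the stages of Slc2a1 at 3 h, and of Pfkfb3 and Pgam1 at 6 h. Of the single-gene results, the 24-library fit lost 12, namely Slc2a1, Pfkl, Pfkm, Pgk1, Kdm3a and Ddit4 in myoblasts at 3 h and Kdm3a at 6 h, and Slc2a1, Pgam1, Ldha and Egln1 in differentiated cells at 3 h and Ddit4 at 6 h.

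Leaving out 1 library, the genes that fell in myoblasts numbered 2 to 9 at 3 h, with 2 without non-stretched replicate 8, 4 without non-stretched replicate 7 or stretched replicate 8, and 3 without stretched replicate 7, 9 or 10. At 6 h they numbered 0 to 3, with 0 if replicate 7 or 10 of the controls was left out, 2 without control replicate 9 and 3 without stretched replicate 8. Those upregulated in myoblasts at 3 h numbered 0 to 1, with 1 without non-stretched replicate 10. In differentiated cells at 1 h, those that fell and those downregulated numbered 0 to 1, with 1 without stretched replicate 4. At 3 h, 7 to 12 rose, with 7 without stretched replicate 7, and 0 to 1 were upregulated, with 1 without non-stretched replicate 9. For 6 h against 1 h, 1 to 2 were lower in myoblasts, with 2 without non-stretched replicate 9 of the 1 h cells. In differentiated cells, 6 to 12 were higher, with 12 without stretched replicate 4 of the 1 h cells, and 0 to 1 lower, with 1 without stretched replicate 8 of the 1 h cells. Between the stages, 1 to 5 were higher and 0 to 1 lower at 3 h, and 1 to 5 were higher at 6 h, with 5 without myoblast stretched replicate 8 or differentiated stretched replicate 9. At 3 h, 1 was higher without myoblast non-stretched replicate 8 or differentiated stretched replicate 7.

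Effects at 1 h without a call changed sign. Leaving out 1 library, Slc2a3, Ndrg1 and Ankrd37 ranged from -0.154 to 0.0593, -0.0431 to 0.0649 and -0.105 to 0.0733 in myoblasts, and Pfkfb3, Ak4, Ndrg1 and Ankrd37 from -0.0611 to 0.0915, -0.125 to 0.0597, -0.0366 to 0.0547 and -0.106 to 0.0540 in differentiated cells. Pfkfb3 was at -0.0692 with the experiment and -0.0713 with the block there.

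Dividing by the longest transcript, the shares in myoblasts and differentiated cells were 18.98% and 29.5% for Hk2, 43.3% and 9.39% for Pfkl, 21.1% and 74.9% for Pfkm, 35.7% and 15.7% for Pfkp, 18.3% and 55.7% for Eno3, 0.589% and 2.78% for Ldhb and 11.4% and 15.9% for Slc16a3. In differentiated cells, they were 0.0710% for Aldoc and 1.32% for Slc2a3. Few counts in a library limited the precision for Adm, Slc2a3, Aldoc and, in myoblasts, Pgam2.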
